A study of Homo sapiens with 40 samples.

Results

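The IFITM, IFI and ISG genes are interferon-stimulated genes named after their induction, and 10 of them were followed here by matching their names to the rows of the count table: IFITM1, IFITM2, IFITM3, IFI6, IFI27, IFI35, IFI44, IFI44L, ISG15 and ISG20, of 44584 names in all. RNA was taken from BT474, a HER2-positive breast cancer epithelial line that responds to trastuzumab, and from BT474R, its resistant derivative, a single clone obtained by growth in trastuzumab. Cells of both lines were kept in low serum overnight and collected at T0, or were given EGF, HRG (heregulin, a ligand of HER3 and HER4) or water as the vehicle and collected 1, 12 or 24 h later. This gave 20 groups of 2 libraries, 40 libraries in all, and no group received interferon. All groups, the vehicle groups included, were serum-starved before treatment. By the study's methods, EGF was given at a higher mass concentration than HRG, so ligand and dose cannot be told apart. The libraries of a group carry replicate numbers only, so p-values measure the spread between these samples, which may be technical. BT474R is 1 clone, so a difference between the lines cannot be told apart from a difference between this clone and any other.

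Interferons act through cell surface receptors and the kinases JAK1, JAK2 and TYK2. Signalling from them leads to the binding of a complex that holds STAT2 and IRF9 to the interferon-stimulated response element (ISRE), and a second element, the gamma-activated site (GAS), serves the response to interferon gamma. IRF1 also binds ISRE-like sequences. The IFITM proteins are small membrane proteins that hinder the entry of enveloped viruses. ISG15 is a ubiquitin-like protein that is conjugated to other proteins, ISG20 is an exonuclease that degrades single-stranded RNA, and IFI6 is a membrane protein that protects cells from apoptosis. IFI35 interacts with NMI, and IFI44 and IFI44L are related cytoplasmic proteins.

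The promoters are shown first. The members were grouped by names that come from induction by interferon, which acts through the ISRE. A high share of ISRE matches is therefore not independent of the grouping. RefSeq promoter windows of 300 bases (250 before to 50 after the transcription start, GRCh38.p14) were found for 9 of the 10 members. IFITM2 had none. Windows were searched on both strands for the ISRE core GAAANNGAAA (TTTCNNTTTC on the other strand) and for GAS, TTCNNNGAA, which reads the same on both strands. The motifs may overlap each other. An ISRE core was found for 8 of the 9 members, against 4.38% of 27305 genes, and GAS for 3, against 9.38% of genes. By window, the shares were 3.57% and 7.66% of 35116. The 170 bases before the start are printed below, 5′ to 3′ on the gene's strand, for members whose levels are described next, with motif matches in capitals. They lie at chr11:313870-314039 (+) for IFITM1, chr11:320861-321030 (-) for IFITM3, chr1:27672193-27672362 (-) for IFI6, chr1:78620278-78620447 (+) for IFI44L, chr1:1013327-1013496 (+) for ISG15, chr14:94110566-94110735 (+) for IFI27 and chr17:43006614-43006783 (+) for IFI35. A match is a description of letters and says nothing on binding in these cells.
IFITM1: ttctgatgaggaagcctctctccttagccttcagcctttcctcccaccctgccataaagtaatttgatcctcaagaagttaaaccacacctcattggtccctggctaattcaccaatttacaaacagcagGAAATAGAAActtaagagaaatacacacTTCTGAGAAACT
IFITM3: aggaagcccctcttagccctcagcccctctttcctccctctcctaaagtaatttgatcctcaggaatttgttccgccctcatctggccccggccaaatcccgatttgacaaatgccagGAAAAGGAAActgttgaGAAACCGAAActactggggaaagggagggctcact
IFI6: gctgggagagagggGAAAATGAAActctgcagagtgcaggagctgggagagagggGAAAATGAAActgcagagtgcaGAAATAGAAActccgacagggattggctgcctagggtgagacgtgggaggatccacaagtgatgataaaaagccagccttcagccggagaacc
IFI44L: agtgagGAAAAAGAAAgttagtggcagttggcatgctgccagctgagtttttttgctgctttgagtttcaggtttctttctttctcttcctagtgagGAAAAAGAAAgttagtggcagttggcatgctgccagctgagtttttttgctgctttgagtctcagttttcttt
ISG15: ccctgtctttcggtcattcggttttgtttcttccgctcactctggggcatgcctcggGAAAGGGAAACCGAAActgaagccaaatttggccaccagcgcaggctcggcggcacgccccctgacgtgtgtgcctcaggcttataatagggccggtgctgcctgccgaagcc
IFI27: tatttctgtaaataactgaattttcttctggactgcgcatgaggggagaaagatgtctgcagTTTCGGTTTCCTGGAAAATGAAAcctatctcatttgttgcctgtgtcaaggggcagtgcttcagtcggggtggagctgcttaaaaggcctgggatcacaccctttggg
IFI35: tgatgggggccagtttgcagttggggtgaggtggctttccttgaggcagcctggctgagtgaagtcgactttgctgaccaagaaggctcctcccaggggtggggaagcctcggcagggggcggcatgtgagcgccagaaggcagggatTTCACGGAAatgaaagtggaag

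With the first transcribed base as position 0, the 2 ISRE cores of ISG15 start at -113 and -107 and overlap. IFI6 has 3 cores, at -156, -115 and -93. IFITM1 and IFITM3, neighbours on chromosome 11, have 2 cores each. Those of IFITM3 start at -52 and -35, and those of IFITM1 at -40 and -6, the second of which runs across the start site, so that the printed stretch holds only its first bases. A GAS match of IFITM1 starts at -12 and overlaps that core. The windows of IFITM1 and IFITM3 share a run of 19 bases. In IFI44L the cores at -164 and -73 lie in copies of a run of 85 bases that occurs at both places. IFI44 and ISG20 have 1 core each, at -18 and -69. For IFI27 and IFI44, which have 2 windows each, the first is described. IFI27 has 2 cores around a GAS match, at -108, -101 and -95. IFI35 is the member with a window but no ISRE core, and its GAS match starts at -22.

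**Figure D1:**
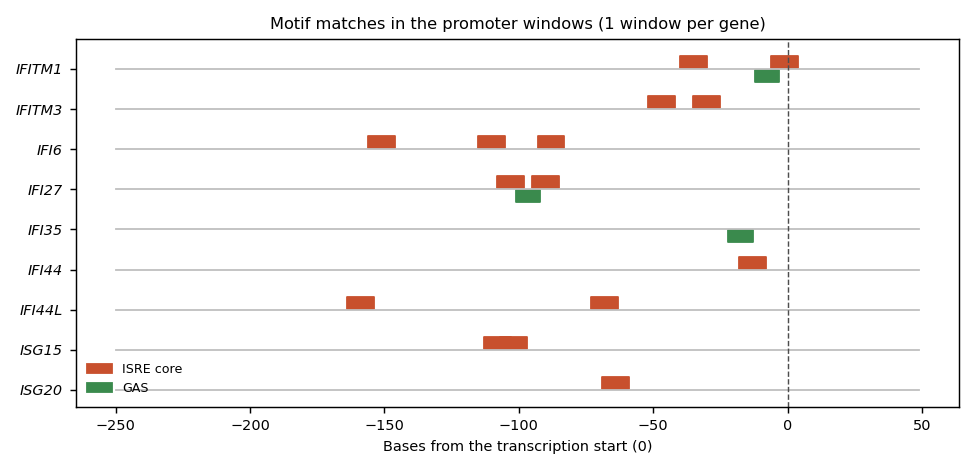
Positions of ISRE core (upper, red) and GAS (lower, green) matches in the promoter window of each of 9 members, in bases from the transcription start at 0. In the windows drawn, matches lie between -164 and 3 bases from the start, and IFI35 alone has a GAS match without an ISRE core.

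Levels are given as CPM, the counts of a gene scaled to a library's total after TMM normalisation and so comparable between libraries, with both libraries of a group in each case. A library held between 16794594 and 33387936 counts, with medians of 23628091.5 in BT474 and 25449121.5 in BT474R. Replicates spread more than counting noise in all 20 groups: the median chi-square per gene was 0.595 to 2.56, where counting noise alone gives 0.455, and it was highest in HRG-BT474R at 24 h. All 10 epithelial and HER2 markers were above 3 counts in at least 1 library of each line. Their summed level was 11365 to 15266 CPM in BT474 and 10545 to 17006 CPM in BT474R. ERBB2 alone had 5994 to 8140 CPM in BT474 and 6231 to 10546 CPM in BT474R. At T0, 3 of the 10 were called higher and 6 lower in BT474R, where 25.1% and 21.7% of all tested genes were. GATA3 had 307 to 546 CPM in BT474 and 10.6 to 55.5 CPM in BT474R. TFAP2B was close to 0 in BT474R, at 4 counts or fewer. Of 10 markers of leukocytes, fibroblasts and endothelium, PTPRC and CD3E had 2 counts or fewer in every library, while COL1A1 had 75.0 to 105 CPM in BT474 and 169 to 295 CPM in BT474R. VWF had 12.8 to 23.0 CPM in BT474 and 8.61 to 15.8 CPM in BT474R. The sum of these 10 markers lay between 90.7 and 121 CPM in BT474 and between 181 and 307 CPM in BT474R. In bulk RNA, fewer cells that express a gene and less of it per cell cannot be told apart.

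The members had very different floors. IFITM2, IFI6, IFI35, ISG15 and ISG20 had more than 3 counts, summed over the 2 libraries, in all 20 groups. IFITM1 was at 3 counts or fewer in 2 groups, IFI27 in 2, IFI44 in 4 and IFITM3 in 6, all of them BT474R groups, and IFI44L in 14 groups, 6 of BT474 and 8 of BT474R. A fold against such a group is given with a 95% interval from counting error, or as a bound against 3 counts per group where the group had 0. All 10 members passed the filter of the test in BT474. In BT474R, IFI44L did not, with counts in 7 of 20 libraries where 10 were needed, and IFITM1, IFITM3 and IFI44 had counts in 18, 16 and 17. The row IFI27_1, which repeats the name IFI27, never had more than 3 counts in a library.

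**Figure D2:**
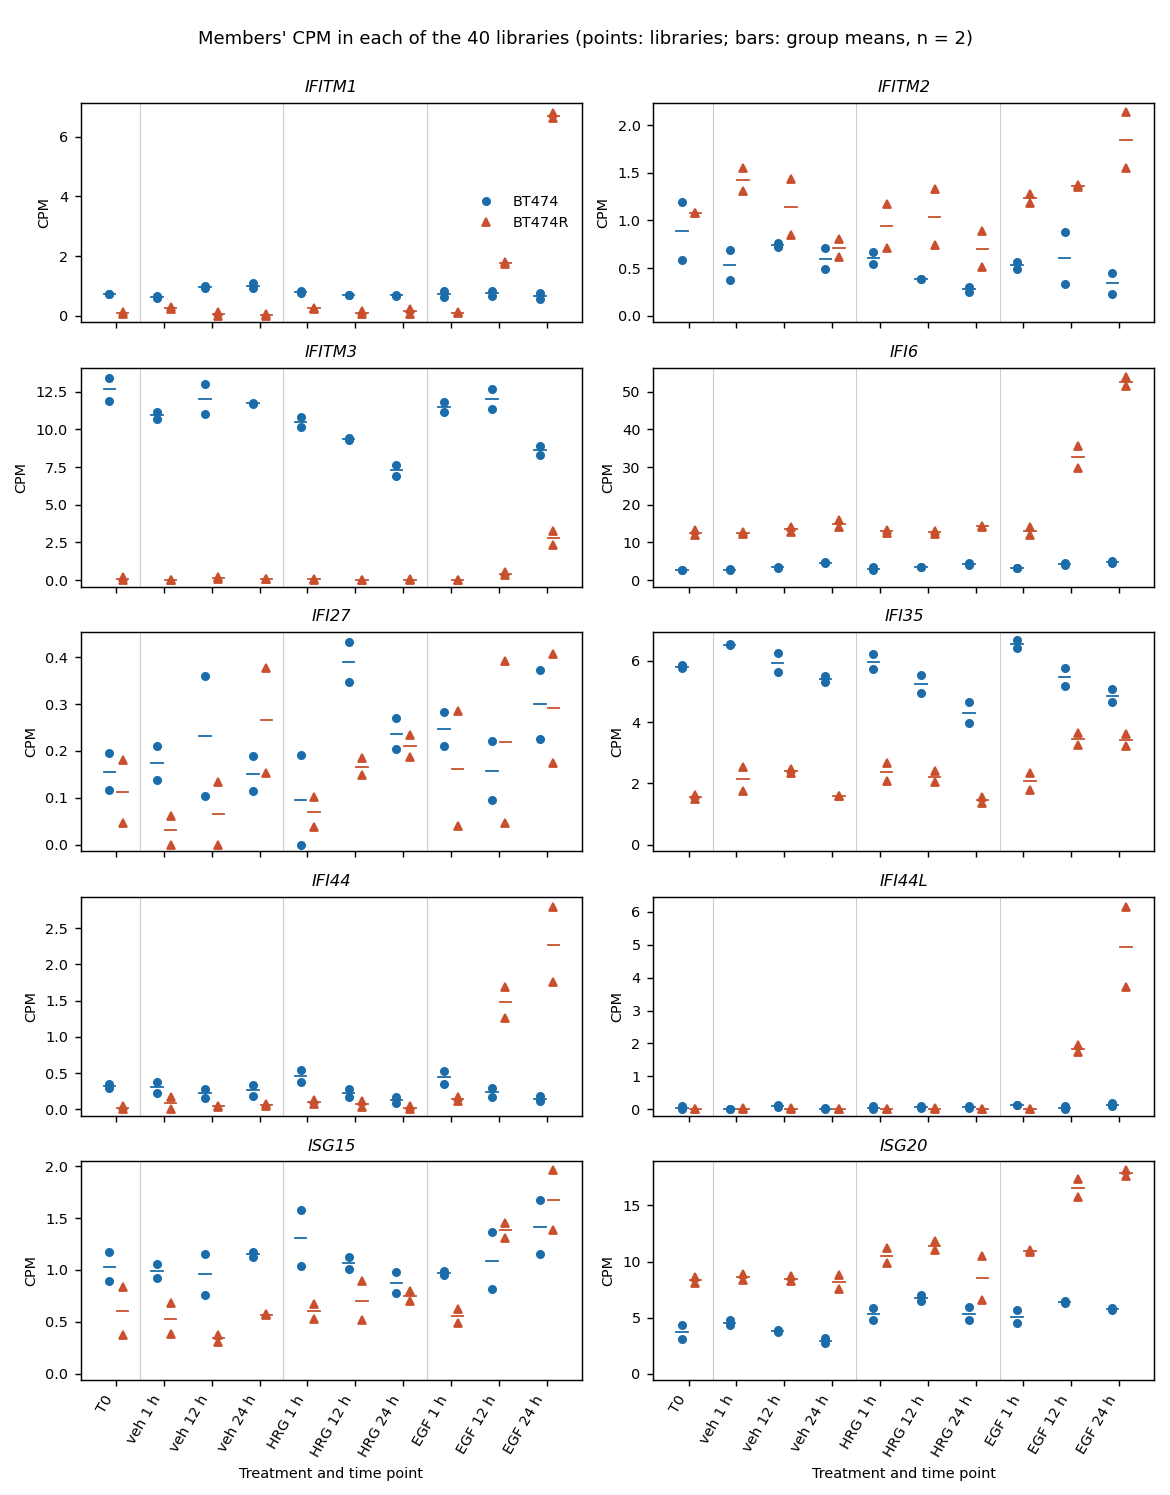
CPM of the 10 members in each library (points, n = 2 per group) with group means (bars), for BT474 (blue circles) and BT474R (red triangles), on linear axes that differ between panels. In EGF-BT474R at 24 h, IFITM1 reached 6.63 and 6.80 CPM and IFI6 51.5 and 53.8 CPM, while IFI6 with HRG at 24 h had 14.4 and 14.1 CPM, beside 14.2 and 15.8 CPM with vehicle.

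The baseline comparison asked how the starved resistant cells differ from the parental ones. Here and below, a gene is called where edgeR's quasi-likelihood test gave a Benjamini-Hochberg adjusted p below 0.05 over all tested genes. At T0, 6 of the 10 members were called, 2 higher and 4 lower in BT474R, where 46.9% of all tested genes were called, 25.1% higher and 21.7% lower. A share of 6 in 10 is thus near that of all genes. IFITM3 had 13.4 and 11.9 CPM in BT474 and 0.180 and 0 CPM in BT474R, or 590 against 3 counts. The ratio of BT474R to BT474 was 0.00619 (95% counting interval 0.00127 to 0.0182, adjusted p = 1.6e-20). IFITM1 had 0.735 and 0.734 CPM in BT474 and 0.120 and 0.0468 CPM in BT474R, a ratio of 0.107 (0.0211 to 0.342, adjusted p = 3.24e-05). The libraries of the 2 lines did not overlap for either gene. IFITM2, their neighbour, did not pass the test: it had 1.20 and 0.587 CPM in BT474 and 1.08 and 1.08 CPM in BT474R (log2 fold change 0.23, SE 0.38, adjusted p = 0.671). Since the 3 IFITM genes are similar in sequence and the handling of reads that map to several genes is not stated, some counts may be divided between them.

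The IFI and ISG genes went both ways at T0. IFI6 was higher in BT474R, at 13.2 and 12.1 CPM against 2.63 and 2.59 CPM in BT474 (log2 fold change 2.27, SE 0.14, adjusted p = 8.78e-17). ISG20 was also higher, at 8.64 and 8.05 against 4.33 and 3.08 CPM (1.14, SE 0.17, adjusted p = 5.58e-07). IFI35 was lower, with 1.50 and 1.64 CPM in BT474R and 5.76 and 5.87 CPM in BT474 (-1.88, SE 0.18, adjusted p = 2.71e-11). These 3 genes were well counted, and in each the libraries of the lines lay apart. IFI44 was counted 15 times in BT474 and 1 time in BT474R, a ratio of 0.0812 (0.00193 to 0.528, adjusted p = 0.00621), and without replicate 1 of BT474R at T0 it was no longer called (adjusted p = 0.0569). ISG15 had 0.889 and 1.17 CPM in BT474 and 0.840 and 0.374 CPM in BT474R and was not called (-0.80, SE 0.39, adjusted p = 0.0915). Without the same library it was called (-1.46, adjusted p = 0.0209), so that library decides the call of both genes. IFI27, with 7 and 4 counts, did not pass (adjusted p = 0.749), and IFI44L had 2 counts in BT474 and 0 in BT474R.

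**Figure D3:**
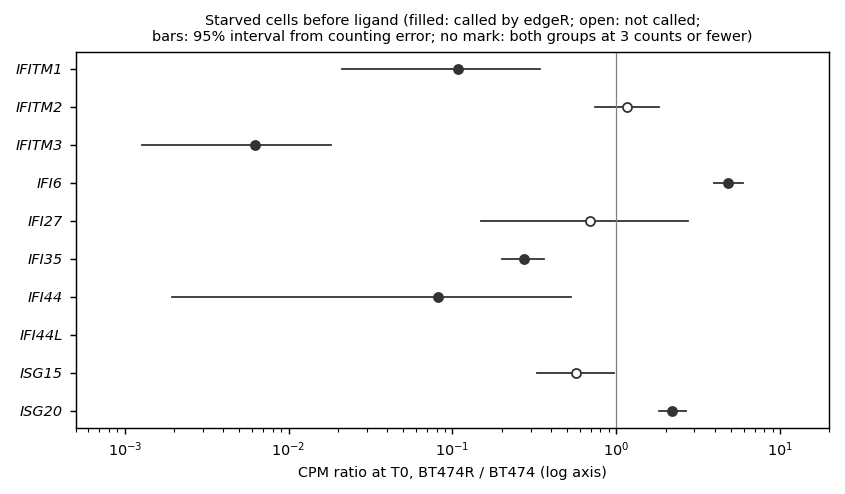
Ratio of CPM in BT474R to BT474 at T0 for each member, on a log axis, with 95% intervals from counting error. Filled points were called by edgeR: IFITM1, IFITM3, IFI35 and IFI44 lie below 1, with IFITM3 at 0.00619, and IFI6 and ISG20 above 1, while IFI44L has no mark.

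The question of the next comparison was how the members respond to EGF in the resistant line, with the time-matched vehicle as control. At 1 h no member of the 9 tested was called in EGF-BT474R, where 0.457% of genes were called; 1 member had an unadjusted p below 0.05, and DESeq2 called 0. At 12 h, 5 were called and all 5 were higher, where 12% of genes were called and 6.85% were higher. At 24 h, 8 of the 9 were called, all higher, where 17.3% of genes were called and 9.95% were higher. IFI27 was the tested member that was not called. IFI44L, which was too rarely counted to enter this fit, is given by its counts.

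Among the IFITM genes in EGF-BT474R, IFITM1 had 1.81 and 1.73 CPM at 12 h, with 0 and 0.136 CPM in the vehicle, a ratio of 23 (8.64 to 86.3, adjusted p = 3.02e-06). By 24 h IFITM1 had 6.63 and 6.80 CPM, and the vehicle had 0.0384 and 0 CPM, or 319 counts against 1. That ratio was 317.5 (56.6 to 12581, adjusted p = 4.18e-10). IFITM3 had 0.550 and 0.327 CPM at 12 h against 0.177 and 0.0682 CPM in the vehicle, a ratio of 3.87 (1.51 to 11.7), which was not called (adjusted p = 0.0837). At 24 h IFITM3 reached 3.27 and 2.36 CPM against 0.0769 and 0.0941 CPM, 33.1 times the vehicle (12.6 to 123, adjusted p = 9.36e-07). In both genes every EGF library at 12 h and 24 h lay above every vehicle library. IFITM2 had 1.37 and 1.36 CPM at 12 h, between the 0.843 and 1.43 CPM of its vehicle (adjusted p = 0.745). IFITM2 at 24 h had 2.14 and 1.55 CPM against 0.807 and 0.611 CPM (log2 fold change 1.35, SE 0.34, adjusted p = 0.00754). The call was lost without replicate 1 of EGF-BT474R at 24 h (1.09, adjusted p = 0.102) and without replicate 2 of its vehicle (1.19, adjusted p = 0.0521).

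Of the IFI genes, IFI6 rose from 14.01 and 12.9 CPM in the vehicle to 35.6 and 29.8 CPM with EGF at 12 h (log2 fold change 1.29, SE 0.10, adjusted p = 6.12e-09). The rise at 24 h was from 14.2 and 15.8 CPM to 53.8 and 51.5 CPM (1.81, SE 0.10, adjusted p = 1.5e-11). The vehicle libraries stayed close to T0 and the EGF libraries lay far above them. IFI44 had 1.69 and 1.26 CPM at 12 h, or 70 counts against 2 in the vehicle, a ratio of 38.7 (10.3 to 326, adjusted p = 1.84e-05). IFI44 at 24 h had 2.79 and 1.75 CPM, or 107 counts against 3, a ratio of 35.5 (11.8 to 175, adjusted p = 2.37e-06). IFI44L, beside IFI44 on chromosome 1, had 1.96 and 1.73 CPM at 12 h, or 87 counts against 1, a ratio of 96.3 (16.8 to 3847). By 24 h it had 6.15 and 3.70 CPM with 232 counts against 0, at least 77-fold higher when the vehicle group is set at 3 counts.

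IFI35 had 3.26 and 3.65 CPM with EGF at 12 h and 2.48 and 2.35 CPM with vehicle (log2 fold change 0.51, SE 0.20, adjusted p = 0.102), which was called in the fit of both lines (adjusted p = 0.0328). At 24 h IFI35 rose to 3.62 and 3.21 CPM from 1.58 and 1.60 CPM (1.10, SE 0.21, adjusted p = 0.00076). IFI35 is the member without an exact ISRE core in its window. Near matches were not searched for, and whether a core bears on the response was not tested. IFI27, which has 2 cores, was counted 11 times against 3 at 12 h and 14 times against 12 at 24 h (adjusted p = 0.337 and adjusted p = 0.915). Its libraries at 24 h had 0.174 and 0.407 CPM with EGF and 0.154 and 0.376 CPM with vehicle and overlapped. The counting interval of its ratio at 24 h ran from 0.499 to 2.75.

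The ISG genes rose at both later time points. ISG15 had 1.45 and 1.31 CPM with EGF and 0.310 and 0.375 CPM with vehicle at 12 h (log2 fold change 1.98, SE 0.39, adjusted p = 0.00124), and 1.96 and 1.38 CPM against 0.576 and 0.564 CPM at 24 h (1.54, SE 0.35, adjusted p = 0.00327). Without replicate 1 of EGF-BT474R at 24 h, ISG15 was not called (1.26, adjusted p = 0.0583). ISG20 had 17.4 and 15.8 CPM with EGF at 12 h and 8.25 and 8.73 CPM with vehicle (0.96, SE 0.14, adjusted p = 3.78e-05). At 24 h it had 18.1 and 17.7 against 7.57 and 8.79 CPM (1.13, SE 0.14, adjusted p = 3.56e-06). At 1 h ISG20 had 10.9 and 11.0 CPM against 8.37 and 8.86 CPM, libraries that did not overlap, with an adjusted p of 0.733.

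The levels of EGF-BT474R at 24 h are set beside the 20 BT474 libraries as a description. The share of all genes that lie apart in this way was not computed. At T0, 46.9% of all tested genes were already called between the lines. IFITM1, at 6.63 and 6.80 CPM, was above the BT474 maximum of 1.08 CPM, although at T0 it was below BT474. IFI44, at 1.75 CPM or more, and IFI44L, at 3.70 CPM or more, exceeded BT474 maxima of 0.543 and 0.186 CPM. IFI6, ISG20 and IFITM2 were also above every BT474 library. Of these, IFI6 and ISG20 were already called higher in BT474R at T0, and IFITM2 was not. The BT474R libraries other than EGF at 12 h and 24 h had at least 12.1 CPM of IFI6. The BT474 maximum of IFI6 was 5.15 CPM. IFITM3 at 2.36 and 3.27 CPM stayed below the BT474 minimum of 6.93 CPM, and IFI35 at 3.21 and 3.62 CPM stayed below 3.97 CPM. IFITM3 and IFI35 were both called lower in BT474R at T0. The libraries of ISG15 and IFI27 overlapped the BT474 range. The summed level of the markers of other cell types in BT474R at 24 h was 280 and 307 CPM with EGF and 288 and 300.3 CPM with vehicle, and 1 of the 5 markers tested was called, higher with EGF. Their part in the results was not tested.

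With HRG the resistant line gave no call. In HRG-BT474R, 0 of the 9 tested members were called at any time point (1, 12 or 24 h), where 0.169%, 4.12% and 2.78% of genes were called. At an unadjusted p below 0.05 there were 0, 2 and 0, and DESeq2 called 0 at each time. IFI6 had 12.4 and 12.97 CPM with HRG at 12 h and 14.4 and 14.1 CPM at 24 h, and the ratios to the vehicle were 0.947 (0.850 to 1.05) and 0.954 (0.855 to 1.06). IFITM1 was counted 5 times against 4 at 12 h and 6 times against 1 at 24 h. Its counting interval at 24 h ran from 0.804 to 305, so at this depth the counts do not settle whether IFITM1 changed with HRG. ISG15 had 0.893 and 0.517 CPM with HRG at 12 h, above the 0.310 and 0.375 CPM of the vehicle, and was not called (log2 fold change 1.00, SE 0.43, adjusted p = 0.243). ISG20 at 12 h had 11.8 and 11.0 CPM against 8.25 and 8.73 CPM (0.41, SE 0.14, adjusted p = 0.123) and was called only when no filter was used (adjusted p = 0.0185). IFI44L had 1 count in both groups at 12 h and 0 at 24 h.

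The ligands, each at its own dose, were also compared directly, in libraries that both comparisons with the vehicle already use. In BT474R, 5 of the 9 tested members were lower with HRG than with EGF at 12 h, where 1.42% of genes were called, and 7 at 24 h, where 5.18% were called. The 5 at 12 h were IFITM1, IFITM3, IFI6, IFI44 and ISG20, and IFITM2 and IFI35 joined them at 24 h. IFI6 differed by -1.39 (SE 0.10, adjusted p = 1.31e-08) at 12 h and by -1.87 (SE 0.10, adjusted p = 5.59e-11) at 24 h on the log2 scale. ISG20 differed by -0.56 (SE 0.13, adjusted p = 0.0327) at 12 h, a call that was lost when any of the 4 libraries was left out (adjusted p between 0.0888 and 0.485) and with only the groups compared (adjusted p = 0.066), and by -1.05 (SE 0.14, adjusted p = 3.07e-05) at 24 h. IFITM3 at 12 h, with 1 count against 21, lost its call without replicate 1 or replicate 2 of HRG or without replicate 1 of EGF (adjusted p = 0.123, 0.288 and 0.364), and also with DESeq2 (adjusted p = 0.154) and with only the groups compared (adjusted p = 0.127). IFITM2 at 24 h (-1.37, SE 0.35, adjusted p = 0.0216) was not called without replicate 1 of HRG (-1.04, adjusted p = 0.135) or of EGF (-1.11, adjusted p = 0.212). ISG15 was not called (adjusted p = 0.248 at 12 h and 0.0554 at 24 h), and IFI44L, not tested, had 1 count with HRG and 87 with EGF at 12 h and 0 against 232 at 24 h, at least 69.7-fold lower. In a fit of the 4 libraries of EGF and HRG at 24 h alone, 0 of these 7 were called (adjusted p between 0.0882 and 0.487). In BT474, 0 members differed between the ligands at 12 h and 24 h by edgeR and by DESeq2, where 2.17% and 0.768% of genes were called, with 1 and 2 at an unadjusted p below 0.05.

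**Figure D4:**
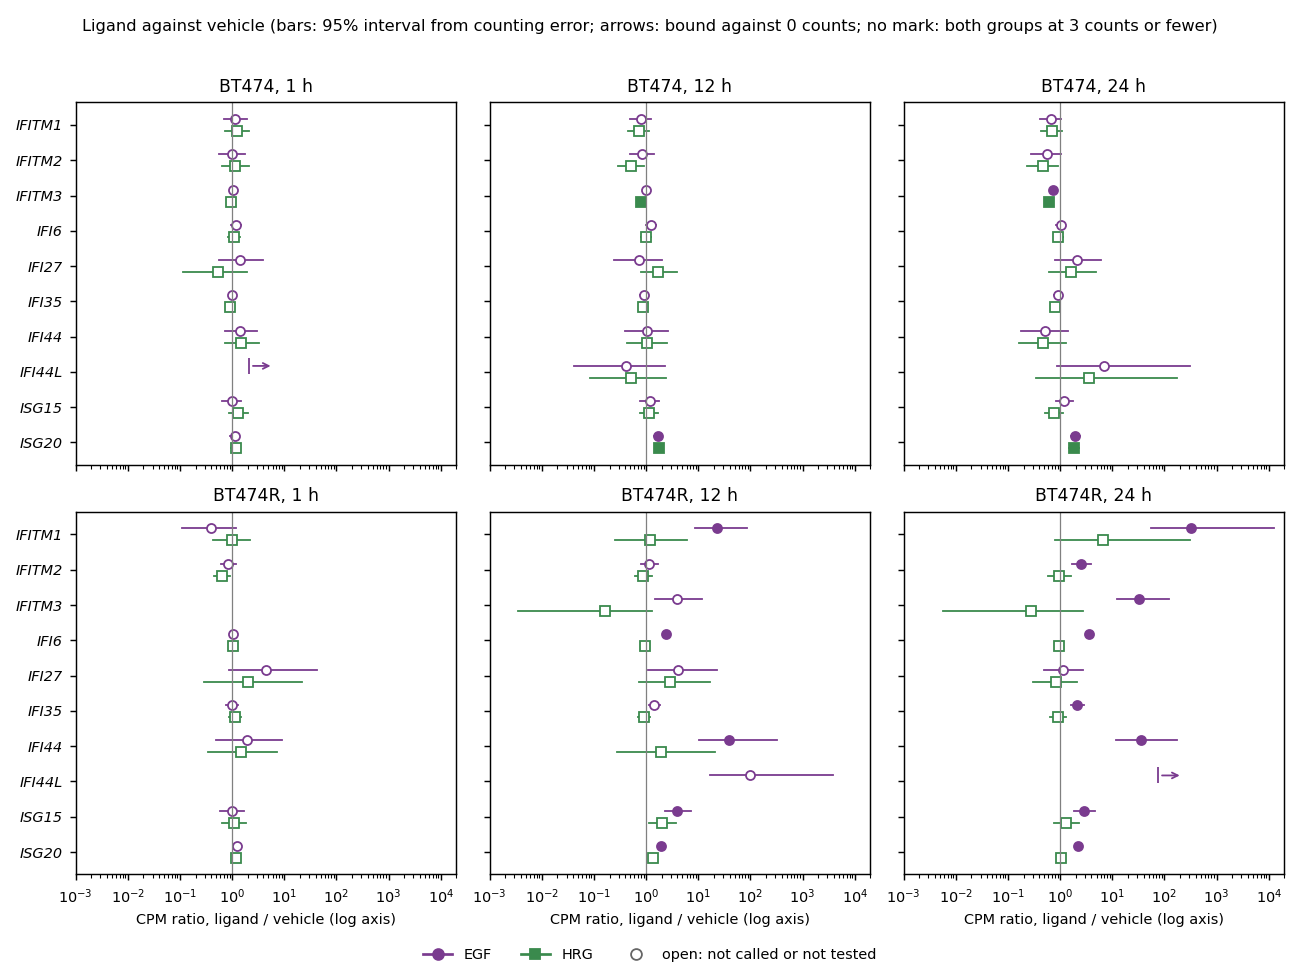
Ratio of CPM with ligand to vehicle for each member, line and time point, on a log axis, with 95% intervals from counting error (EGF circles, HRG squares; filled marks were called by edgeR). In EGF-BT474R 5 marks are filled at 12 h and 8 at 24 h, the HRG marks in BT474R are all open, and IFI44L, which was not tested there, is an arrow at its bound of 77 at 24 h.

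In BT474 fewer members were called. At 1 h, 0 of the 10 members were called with EGF or with HRG, where 2.19% and 2.77% of genes were called; 1 and 0 had an unadjusted p below 0.05, and DESeq2 called 0 in both. EGF gave 1 call at 12 h and 2 at 24 h, where 16% and 16.4% of genes were called. HRG gave 2 calls at each time, where 25.8% and 24.1% of genes were called. With 1 or 2 members of 10, these shares are near or below those of all genes. ISG20 rose with both ligands: it had 6.47 and 6.34 CPM with EGF and 6.47 and 7.05 CPM with HRG at 12 h, against 3.69 and 3.88 CPM with vehicle. The log2 fold changes were 0.75 (SE 0.16, adjusted p = 0.000551) for EGF and 0.81 (SE 0.15, adjusted p = 5.1e-05) for HRG. At 24 h ISG20 had 5.67 and 5.84 CPM with EGF and 5.96 and 4.75 CPM with HRG against 3.20 and 2.73 CPM (0.95, SE 0.17, adjusted p = 5.16e-05, and 0.85, SE 0.17, adjusted p = 0.00014).

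IFITM3 fell in BT474. At 24 h it had 8.88 and 8.33 CPM with EGF and 6.93 and 7.62 CPM with HRG, below the 11.8 and 11.7 CPM of the vehicle (log2 fold changes -0.45, SE 0.11, adjusted p = 0.00185, and -0.71, SE 0.11, adjusted p = 2e-06). At 12 h it had 9.32 and 9.41 CPM with HRG against 11.0 and 12.98 CPM (-0.38, SE 0.10, adjusted p = 0.00383), which was not called without replicate 2 of the vehicle (-0.25, adjusted p = 0.145). With EGF at 12 h IFITM3 had 11.4 and 12.7 CPM, within the range of the vehicle libraries (adjusted p = 0.966). The IFITM1 libraries at 24 h were 0.746 and 0.543 CPM with EGF, 0.707 and 0.655 CPM with HRG and 1.08 and 0.911 CPM with vehicle, and neither ligand passed the test (adjusted p = 0.225 and adjusted p = 0.219). IFITM2 had 0.388 and 0.382 CPM with HRG at 12 h, apart from the 0.724 and 0.759 CPM of its vehicle, but was not called (-0.96, SE 0.44, adjusted p = 0.107). IFI6, IFI27, IFI35, IFI44, IFI44L and ISG15 were not called with either ligand at any time point. IFI35 at 24 h with HRG had 4.65 and 3.97 CPM against 5.50 and 5.31 CPM (-0.34, SE 0.13, adjusted p = 0.0642), and it was called without replicate 1 of HRG (-0.47, adjusted p = 0.0495). IFI44L was counted 8 times with EGF at 1 h and 0 times with vehicle, at least 2.15-fold higher, with an adjusted p of 0.251.

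Whether the ligand effects differ between the lines was tested directly, as BT474R minus BT474 in the fit of 40 libraries. The EGF effect differed for 0 of the 10 members at 1 h, where 0.138% of genes were called. It differed for 4 at 12 h (1.96% of genes) and for 6 at 24 h (4.01% of genes), each time toward a more positive value in BT474R. For IFITM3 at 24 h, part of the difference is a called fall with EGF in BT474 (log2 fold change -0.45, SE 0.11, adjusted p = 0.00185). At 1 h, 1 member had an unadjusted p below 0.05 and DESeq2 called 0. The 4 at 12 h were IFITM1, IFI6, IFI44 and IFI44L, and the 6 at 24 h were IFITM1, IFITM2, IFITM3, IFI6, IFI35 and IFI44. IFI44L had counts in 21 of the 40 libraries, where 20 were needed, and in 17 without the 4 EGF-BT474R libraries at 12 h and 24 h. It thus entered the fit only through the groups in which it was high, and its call supports nothing. For IFI6 the difference was 0.97 (SE 0.17, adjusted p = 0.000633) at 12 h and 1.77 (SE 0.16, adjusted p = 1.14e-09) at 24 h on the log2 scale. For IFI35 it was 1.25 (SE 0.23, adjusted p = 0.000427) at 24 h. ISG20, which rose with EGF in both lines, differed by 0.20 (SE 0.22, adjusted p = 0.815) at 12 h and 0.17 (SE 0.23, adjusted p = 0.822) at 24 h. ISG15 differed by 1.77 (SE 0.51, adjusted p = 0.0617) at 12 h. IFI44 and IFI44L at 12 h were not called without replicate 1 of the BT474 vehicle at 12 h (adjusted p = 0.0989 and adjusted p = 0.18). IFITM2 at 24 h (2.19, SE 0.62, adjusted p = 0.0346) was lost when any of 6 of the 8 libraries was left out: replicate 1 or 2 of either vehicle, or replicate 1 of either EGF group (adjusted p between 0.0512 and 0.247).

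The HRG effect differed between the lines for 0 members at 1 h and 12 h, where 0.544% and 4.07% of genes were called; 0 had an unadjusted p below 0.05 at either time and DESeq2 called 0. At 24 h, where 3.33% of genes were called, ISG20 had a smaller HRG effect in BT474R (-0.80, SE 0.24, adjusted p = 0.0495). Its HRG-BT474R libraries at 24 h had 6.61 and 10.5 CPM, on both sides of the vehicle at 7.57 and 8.79 CPM. The call was lost with DESeq2 (adjusted p = 0.0599) and when any of 5 of the 8 libraries was left out: replicate 1 or 2 of the BT474 vehicle, replicate 1 of HRG-BT474, replicate 2 of the BT474R vehicle or replicate 1 of HRG-BT474R, with values between -0.93 and -0.49. IFITM1 was called at 24 h only without replicate 1 of HRG-BT474R (adjusted p = 0.0457).

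Over time, no change of a ligand effect from 12 h to 24 h was called by the test of the change itself. The counts of members called were 0 for EGF and HRG in BT474, where 0.517% and 2.5% of genes were called, and 0 for EGF and HRG in BT474R, where 0.185% and 0.0288% were called. At an unadjusted p below 0.05 there were 2, 1, 4 and 0 members, and DESeq2 called 0 in each. The 4 in EGF-BT474R were IFITM1, IFITM2, IFITM3 and IFI6, with adjusted p of 0.481, 0.549, 0.437 and 0.175. The log2 differences of the first 3 were 3.56 (SE 1.37), 1.12 (SE 0.47) and 3.08 (SE 1.12). The vehicle held 4 and 1 counts of IFITM1 at 12 h and 24 h, and 6 and 4 of IFITM3. At these counts the test cannot settle whether their EGF effects changed. IFI6 had a difference of 0.52 (SE 0.14) on the log2 scale, and in the fit of both lines it was called (adjusted p = 0.0417). The numbers of calls at 12 h and 24 h therefore do not show a change between these times.

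Vehicle cells were compared with T0 to see what moved without ligand. In BT474, 1 member was called at 24 h, where 11.4% of genes were called: IFI6 rose from 2.63 and 2.59 CPM to 4.66 and 4.71 CPM (log2 fold change 0.84, SE 0.16, adjusted p = 3e-04). In BT474R, 0 of 9 tested members were called, where 13.7% of genes were called, 1 had an unadjusted p below 0.05 (IFI6, 0.26, SE 0.11, adjusted p = 0.135) and DESeq2 called 0. The rise of IFI6 in BT474 vehicle cells lies outside the ligand comparisons, which use the vehicle of the same hour.

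The rest of the pathway was followed in fixed lists. The 22 interferon genes had at most 4 counts in a BT474 library and 2 in a BT474R library, and summed to 0 or 1 count in each EGF-BT474R library at 1 h and 12 h and to 2 and 1 at 24 h. Of 14 receptor and signalling genes, all tested, EGF-BT474R had 1 higher at 1 h, 6 higher and 1 lower at 12 h, and 7 higher and 0 lower at 24 h, with medians of 0.09, 0.18 and 0.29 on the log2 scale. Of all tested genes, 0.457%, 12% and 17.3% were called at these times. The gene at 1 h was IRF1, a transcription factor of this pathway, with 15.3 and 11.4 CPM against 2.03 and 3.69 CPM (log2 fold change 2.18, SE 0.22, adjusted p = 1.7e-06), when none of the members was called. IRF1 stayed higher at 12 h (3.13, SE 0.23, adjusted p = 4.67e-09) and at 24 h (2.94, SE 0.24, adjusted p = 1.11e-08). IRF9, a DNA-binding partner of STAT2, had 13.4 and 13.6 CPM against 4.12 and 4.16 CPM at 12 h (1.70, SE 0.12, adjusted p = 1.14e-09). The difference between the lines in the EGF effect was called for IRF1 at each time (adjusted p = 3.9e-06, 2.16e-09 and 3.01e-09). In HRG-BT474R, 0, 1 and 0 of the 14 were called, where 0.169%, 4.12% and 2.78% of all genes were. The 1 was STAT2, which was lower (-0.36, SE 0.08, adjusted p = 0.0157). JAK2 was counted 98 times in BT474 at T0 and 1 time in BT474R, a ratio of 0.0124 (0.000311 to 0.0709, adjusted p = 8.77e-11).

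Of 27 further interferon-stimulated genes, 25 were tested in BT474R. With EGF, 0 were called at 1 h, 19 were higher and 0 lower at 12 h, and 17 were higher and 1 lower at 24 h. Of all tested genes, 0.457%, 12% and 17.3% were called at these times. At 12 h and 24 h, 6.85% and 9.95% of all genes were higher. The median log2 fold change of the list was 1.23 at 12 h and 0.98 at 24 h, and the median of all genes was -0.01 at both times. IFIT2, an RNA-binding antiviral protein, had 132 counts against 15 at 12 h (a ratio of 9.74, 5.70 to 17.9) and 506 against 18 at 24 h (28, 17.5 to 47.6). IFIT3 and OAS2 had 275 against 2 and 122 against 4 counts at 12 h. With HRG in BT474R, 1 was higher and 1 lower at 12 h (4.12% of all genes called) and 0 were called at 24 h (2.78%). The medians were -0.09 at both times. In BT474, where 26 were tested, 1 was higher and 5 lower with EGF at 12 h (16% of all genes called) and 3 were higher and 4 lower at 24 h (16.4%). With HRG, 2 were higher and 8 lower at 12 h (25.8% of all genes called) and 2 were higher and 5 lower at 24 h (24.1%). At T0, 2 of 25 were higher and 13 lower in BT474R, where 25.1% of all genes were higher and 21.7% lower. The median was -0.72, where that of all genes was 0. SAMD9 had 143 counts in BT474 and 0 in BT474R, at least 39.1-fold lower, and OAS3 had a ratio of 0.136 (0.112 to 0.165).

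ISG15 conjugation uses the enzymes UBA7, UBE2L6 and HERC5, and USP18 removes ISG15 from its targets. In this list of 7, of which 6 were tested in BT474R, 1 was higher and 1 lower with EGF-BT474R at 12 h, and 2 were higher and 2 lower at 24 h, with medians of -0.02 and -0.06. Of all tested genes, 12% and 17.3% were called at these times. HERC6, a relative of HERC5, was higher (log2 fold change 1.82, SE 0.29, adjusted p = 0.000115 at 12 h and 1.65, SE 0.28, adjusted p = 0.000203 at 24 h). USP18, unlike ISG15, was lower at 24 h, with 32.5 and 29.1 CPM against 42.6 and 38.0 CPM (-0.39, SE 0.10, adjusted p = 0.00729). USP18 was higher in BT474R than in BT474 at T0 (1.16, SE 0.09, adjusted p = 2.92e-13). USP18 shares sequence with related copies in the genome, so its counts are uncertain. UBE2L6 and HERC5 were chosen after their values were seen. UBE2L6 had 0 CPM in every T0, vehicle and EGF 1 h library of BT474R, and 0.275 and 0.140 CPM in EGF-BT474R at 12 h. HERC5 stayed between 0.0393 and 0.0872 CPM in EGF-BT474R at 12 h and 24 h.

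**Figure D5:**
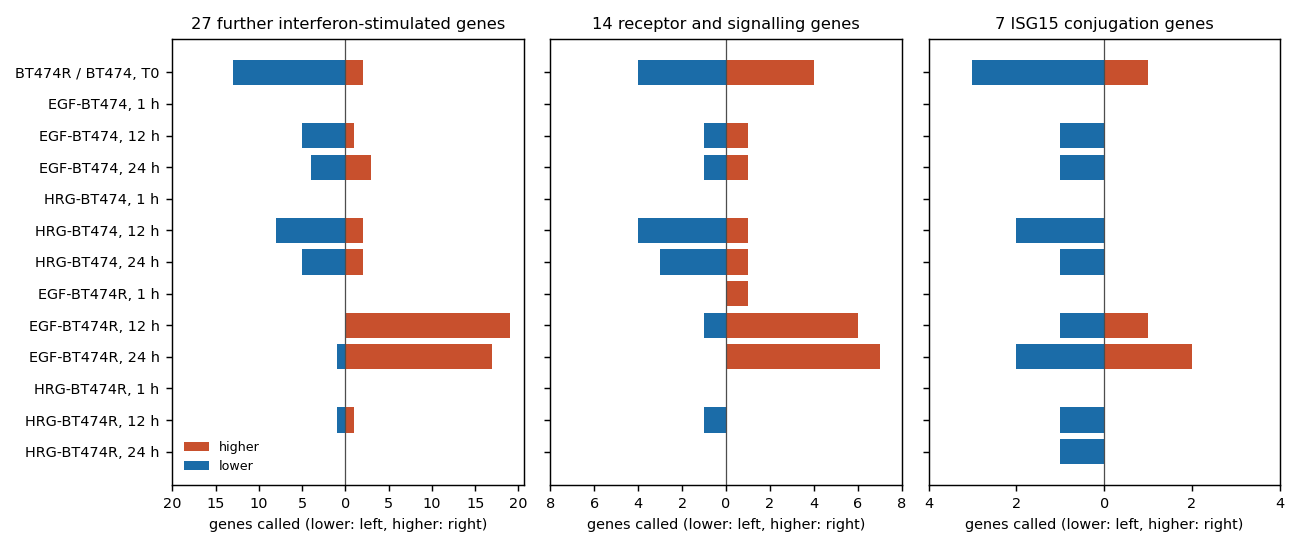
Number of genes called higher (right, red) and lower (left, blue) by edgeR in 3 lists of the pathway, for BT474R against BT474 at T0 and for each ligand, line and time point against vehicle. Of the further interferon-stimulated genes, 19 and 17 were higher in EGF-BT474R at 12 h and 24 h, and 13 were lower in BT474R at T0. Of all tested genes, 6.85%, 9.95% and 21.7% were called in those directions.

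The genes most like each member were sought among 13680 genes in BT474R and 13807 in BT474, by Pearson's r of log2 CPM over the 20 libraries of a line, for members with a mean of at least 1 CPM. These libraries share groups and treatments, so r is a description and carries no p. In BT474R, IFI6 was most like GBP1 (r = 0.986) and IDO1 (r = 0.975), both interferon-induced genes. ISG20 was most like TANC1 (r = 0.951) and RASSF8 (r = 0.948), IFI35 like BCAR3 (r = 0.884) and IL1RAP (r = 0.866), and IFITM2 like LRRC73 (r = 0.829) and IBTK (r = 0.741). In BT474 the nearest genes were NME3 (r = 0.935) and GALNT2 (r = 0.902) for IFITM3, GNAS (r = 0.923) and ERGIC1 (r = 0.914) for IFI6, and NAV2 (r = 0.926) and PPP6C (r = 0.913) for ISG20. IFI35 was most like ALDH1A1 (r = 0.929) and CABYR (r = 0.912), and ISG15 like GTPBP6 (r = 0.638) and SNHG32 (r = 0.617). The level of 1 CPM was reached by IFITM2, IFI6, IFI35 and ISG20 in BT474R, and by IFITM3, IFI6, IFI35, ISG15 and ISG20 in BT474. Among these, none was 1 of the 2 genes nearest to another in its line. The same cutoff applied to the genes searched, so members below it could not be found as neighbours. Whether those members, IFITM1, IFITM3, IFI44, IFI44L and ISG15 in BT474R among them, track the others was not tested.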

How the data were processed

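The authors sequenced mRNA libraries with paired-end reads and, per the labels and the study's methods, checked them with FastQC, trimmed them with Trim Galore 0.6.6, aligned them to GRCh38.p13 with Rsubread and counted them on genes with featureCounts. The deposited values are raw counts for 44584 names. The annotation release, strand setting and handling of multiply mapped reads are not given in the sources used here. All 40 columns were used. The 5078 rows that repeat a name with a number took 2.96% of counts and were kept apart.

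The members and lists were chosen with earlier results of these data known. The named genes are all 10 members, the 2 genes most like each, and up to 3 genes per list with the greatest change among called genes of at least 1 CPM. Genes with at least 1 count in 50% of a fit's libraries were tested in R 4.3.3 with edgeR 4.0.16 (TMM, two-sided quasi-likelihood F tests, Benjamini-Hochberg adjusted p below 0.05, called "called"), in 1 fit of 20 libraries per line, and in a fit of 40 libraries for the T0 comparison and differences between lines. SE is that of the log2 fold change. CPM use TMM factors from the 40 libraries. Counting intervals are exact at 95%, use the counts pooled over a group's 2 libraries and cover counting error only. They leave out the spread between replicates, and reads carry no molecular identifiers. The floor is 3 counts over a group's 2 libraries. DESeq2 1.42.0, its size factors, no filter, fewer or more libraries in the fit, a replicate block, summed copy rows and leaving out each library were the alternatives. The method was tested on simulated data.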

Additional observations from a re-analysis of the deposited data

Results flagged for a closer look

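The results listed here are members whose ligand effect differed between the lines by a test of the difference itself (edgeR, fit of 40 libraries). The EGF effect at 12 h was more positive in BT474R for IFITM1 (adjusted p = 1.07e-06), IFI6 (adjusted p = 0.000633), IFI44 (adjusted p = 0.00252) and IFI44L (adjusted p = 0.00669). IFI44L entered that fit only through the EGF-BT474R libraries in which it was high, with counts in 21 of 40 libraries where 20 were needed and in 17 without those 4, so its call supports nothing. At 24 h the EGF effect was more positive in BT474R for IFITM1 (adjusted p = 1.4e-11), IFITM3 (adjusted p = 4.73e-11), IFI6 (adjusted p = 1.14e-09), IFI44 (adjusted p = 6.37e-05), IFI35 (adjusted p = 0.000427) and IFITM2 (adjusted p = 0.0346). With HRG, the member that differed was ISG20 at 24 h, with less of a rise in BT474R (adjusted p = 0.0495). Groups of 2 libraries are too small to single out a library that stands apart.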

How the results depend on the processing

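Of 352 recomputed counts of called members over 29 comparisons, 328 were within 1.5 times the count reported, and no called member changed sign under any alternative. Of 582 recomputed values of members that were called, 539 kept the call and 43 lost it, leaving out values for which DESeq2 gave no adjusted p. These values belong to 54 results, which include IFI44L. Its results within BT474R, which that line's fit did not test, were taken from the fit of both lines. IFI44L entered that fit only through the EGF libraries in which it was high, so its values in this tally support nothing. In EGF-BT474R at 12 h, 8 members were called with only the groups compared and 8 with both lines in 1 fit, where 14.9% of genes were called. Both counts include IFI44L, which passed those filters only through the EGF libraries in which it was high. HRG-BT474R at 12 h gave 1 with no filter. The change of the EGF effect from 12 h to 24 h in BT474R gave 1 with both lines in 1 fit. HRG against EGF in BT474 at 12 h gave 1 (IFITM3, lower) with no filter, with copy rows summed and with only the groups compared, and in BT474R at 24 h 0 with only the groups compared. The difference of the EGF effect between lines at 12 h gave 2 with DESeq2, which gave no adjusted p for IFI44 and IFI44L. That of HRG at 24 h gave 0 with DESeq2, with its size factors, with copy rows summed and with only the groups compared. Leaving out 1 library gave 1 to 2 members for HRG-BT474 at 12 h, 3 to 4 for HRG against EGF in BT474R at 12 h, and 2 to 5 and 0 to 1 for these differences of EGF at 12 h and HRG at 24 h. A lone library was then assumed to vary like the other groups. The causes were not tested.

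The labels do not say what a replicate number stands for. Deviations of same-numbered libraries correlated between -0.09 and 0.42 over 12 comparisons. They were above 0.1 in 3, all at 24 h: 0.133 for EGF-BT474, 0.296 for HRG-BT474 and 0.421 for HRG-BT474R. The main fits use no replicate block, and whether same-numbered libraries share an effect was not tested. With a replicate block, HRG against EGF gave 1 in BT474 at 12 h (IFITM3, adjusted p = 0.0306), ISG15 was called in BT474R at 24 h (adjusted p = 0.0458), and the difference of the HRG effect at 24 h gave 0 (ISG20, adjusted p = 0.0513). Counts of 3 or fewer limit IFITM1, IFITM3, IFI27, IFI44 and IFI44L in BT474R without EGF.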

Other observations

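Genes that share a name stem with the members but were not among them are given as values only. IFI16, IFITM5 and IFITM4P had at most 1 count in any library of either line, and IFI27L2 had at most 2 in BT474 and 1 in BT474R. IFI30, a lysosomal thiol reductase, was higher in BT474R than in BT474 at T0 (log2 fold change 0.89, SE 0.06, adjusted p = 7.52e-16). IFRD1, a transcriptional regulator, was lower (-0.44, SE 0.06, adjusted p = 6.28e-08) and IFRD2 was higher (0.34, SE 0.07, adjusted p = 9.11e-05). With ligand, IFRD1 was higher and IFI30 lower than with vehicle at 24 h in all 4 comparisons. In BT474 the log2 fold change of IFRD1 was 0.41 with EGF and 0.52 with HRG, and that of IFI30 was -0.35 and -0.39. In BT474R IFRD1 had 0.61 with EGF and 0.36 with HRG, and IFI30 had -0.45 and -0.33. EGF and HRG share the vehicle libraries of each line.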
